A study of Arabidopsis thaliana with 72 samples.

Results

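SAUR genes (SMALL AUXIN UP RNA) were followed through a leaf RNA-seq experiment on closed plasmodesmata. They were taken as the genes of the count matrix whose symbol begins with SAUR and whose mean level over 72 libraries was at least 0.5 CPM, a count scaled to library size. The matrix held 21 such symbols among 33602 genes. Of these, 19 met the minimum, and all 19 also passed the count filter of the statistical model. SAUR61 (0.69 CPM) and SAUR72 (1.02 CPM) lay just above the minimum, and SAUR68 (0.227 CPM) and SAUR40 (0.0025 CPM) were left out. RefSeq gives a SAUR name to another 58 loci, whose symbols in the matrix do not begin with SAUR. They are given below by their RefSeq names, for comparison only.

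The libraries came from Arabidopsis thaliana leaves of 3 genotypes. Col-0 is the wild type without a transgene. The line icals3m carries LexA::icals3m, which encodes a hyperactive form of the callose synthase CALS3, and the line PD-plug carries LexA::PD-Plug; estradiol switches on both transgenes, and the series' design states that both lines then close plasmodesmata, the channels that join plant cells. Leaves of every genotype were painted on both sides with 20 µM β-Estradiol 17-acetate or with 0.1% DMSO as the mock treatment, each with 0.01% Silwet L-77, and were taken 12, 24, 48 or 72 h later. Plants were 5 weeks old, grown on MS plates with 1% sucrose under 10 h of light at 22 °C. The 24 groups held 3 libraries each, and a sample was made of 2 leaves from 4 plants, per the design text. The promoter that drives the estradiol-sensing activator, the number of independent lines and the hour of day of sampling are not given in the sources used here.

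SAUR genes encode small, short-lived proteins, and many of them are among the fastest transcripts to rise after auxin. SAUR proteins of the SAUR19 type bind and inhibit clade D PP2C phosphatases. This keeps plasma membrane proton pumps phosphorylated and active, which acidifies the wall and lets the cell expand. Light, temperature, brassinosteroid, gibberellin and the circadian clock also act on SAUR transcription, partly through PIF transcription factors. Several SAURs act outside this scheme, among them SAUR36, which promotes leaf senescence.

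The 19 genes fell into 3 named subfamilies and 3 single genes. The SAUR19 subfamily (SAUR19 to SAUR24) is a cluster of 6 genes at chr5:5962773-5984308 and the SAUR63 subfamily (here SAUR61 to SAUR67, 7 genes) lies in a cluster at chr1:10301377-10323239, in coordinates of RefSeq's annotation of TAIR10.1. SAUR68, of the same subfamily but under the minimum level, lies within that cluster at chr1:10319732-10320402. The SAUR41 subfamily was represented by SAUR41 and SAUR71 on chromosome 1 and SAUR72 on chromosome 3. SAUR15 lies on chromosome 4, and SAUR32 and SAUR36 on chromosome 2. All 19 have a single annotated exon except SAUR64, which has 2. The protein-coding locus AT1G29435 overlaps SAUR63 and SAUR64 on the other strand, and a long non-coding RNA gene, AT1G06257, overlaps SAUR61; both are not analysed here. Whether reads were counted by strand is not given in the sources used here, so the values of SAUR61, SAUR63 and SAUR64 may include reads of these neighbours.

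In coding DNA, genes of the SAUR19 cluster are near copies of each other, those of the SAUR63 cluster less so. Identity of the coding DNA was 87.7 to 95.2% among the SAUR19 subfamily (median 91.2%, 15 pairs) and 61.2 to 89.4% among the SAUR63 subfamily (median 74.1%, 21 pairs). It was 54.3 to 64.7% among the SAUR41 subfamily (3 pairs), 34.2 to 49.6% between these subfamilies, and 35.1 to 72.9% between the 3 single genes and the subfamilies, highest for SAUR15 and SAUR21. The first 57 coding bases of the SAUR19 subfamily (RefSeq, TAIR10.1) are shown as an example of how little separates the coding sequences of its members. Annotated transcripts of these genes span 495 to 839 bases, and their untranslated parts were not compared. Capitals mark the 10 positions at which the 6 genes are not all alike.
SAUR19: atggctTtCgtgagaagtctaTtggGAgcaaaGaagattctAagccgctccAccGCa
SAUR20: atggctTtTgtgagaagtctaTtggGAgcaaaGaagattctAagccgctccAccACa
SAUR21: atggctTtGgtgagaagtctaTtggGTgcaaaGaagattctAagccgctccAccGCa
SAUR22: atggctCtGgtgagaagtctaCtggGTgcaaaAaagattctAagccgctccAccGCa
SAUR23: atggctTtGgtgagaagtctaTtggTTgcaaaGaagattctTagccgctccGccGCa
SAUR24: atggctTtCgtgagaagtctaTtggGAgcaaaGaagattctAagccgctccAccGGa
SAUR19 and SAUR24 were the closest pair, 95.2% identical over the whole coding sequence. How the authors' counting shared reads between such copies is not given, so the split of counts within the SAUR19 subfamily is uncertain, and the sum over the subfamily is given beside single genes.

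The 300 bases before the annotated gene start were searched on both strands for TGTCTC and TGTCGG, known as auxin response elements, CACGTG, the G-box, and CATGTG, a variant box to which PIF proteins bind. The CATGTG box was present in 7 of 7 promoters of the SAUR63 subfamily, 3 of 6 of the SAUR19 subfamily and 0 of 3 of the SAUR41 subfamily. Over all 19 genes the share was 57.9%, against 34.5% of the 58 other SAUR loci and 13.1% of 27443 protein-coding genes. TGTCTC was present in 31.6% of the 19 promoters and 13.0% of all, TGTCGG in 5.26% and 4.91%, and CACGTG in 0 of 19 and 7.09%. No match overlapped another. The promoters below are those of every SAUR gene whose response to estradiol differed by the test between a line and Col-0 at some time, apart from SAUR22, which held few counts there. That of SAUR65 overlaps the annotated locus AT1G29465, and the others overlap no annotated gene. They are written 5′ to 3′ on the gene's strand, ending at the base before the start, with matches in capitals. A CATGTG on the other strand reads CACATG and a TGTCTC on the other strand reads GAGACA.
SAUR64, chr1:10306596-10306895, minus strand: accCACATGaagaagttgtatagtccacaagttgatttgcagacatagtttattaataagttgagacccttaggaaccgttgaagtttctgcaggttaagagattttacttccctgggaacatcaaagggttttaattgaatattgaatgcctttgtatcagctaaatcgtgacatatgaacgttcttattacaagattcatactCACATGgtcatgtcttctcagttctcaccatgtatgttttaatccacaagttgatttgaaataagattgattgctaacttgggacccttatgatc
SAUR65, chr1:10308247-10308546, minus strand: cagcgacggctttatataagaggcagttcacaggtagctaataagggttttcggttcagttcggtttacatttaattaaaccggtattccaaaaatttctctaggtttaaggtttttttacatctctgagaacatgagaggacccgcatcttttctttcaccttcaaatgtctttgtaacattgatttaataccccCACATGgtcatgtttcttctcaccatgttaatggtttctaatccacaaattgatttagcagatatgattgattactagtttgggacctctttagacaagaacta
SAUR66, chr1:10320711-10321010, plus strand: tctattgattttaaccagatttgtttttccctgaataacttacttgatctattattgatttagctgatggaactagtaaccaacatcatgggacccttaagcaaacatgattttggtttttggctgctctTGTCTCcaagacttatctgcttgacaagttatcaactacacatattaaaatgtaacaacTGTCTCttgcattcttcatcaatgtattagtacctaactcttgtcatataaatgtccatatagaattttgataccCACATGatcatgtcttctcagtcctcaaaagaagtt
SAUR67, chr1:10322123-10322422, plus strand: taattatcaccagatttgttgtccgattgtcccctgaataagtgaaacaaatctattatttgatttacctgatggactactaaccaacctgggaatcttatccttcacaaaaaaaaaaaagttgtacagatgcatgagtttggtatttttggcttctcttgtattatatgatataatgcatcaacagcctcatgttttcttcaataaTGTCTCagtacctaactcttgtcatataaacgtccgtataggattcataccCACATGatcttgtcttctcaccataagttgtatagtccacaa
SAUR21, chr5:5968052-5968351, plus strand: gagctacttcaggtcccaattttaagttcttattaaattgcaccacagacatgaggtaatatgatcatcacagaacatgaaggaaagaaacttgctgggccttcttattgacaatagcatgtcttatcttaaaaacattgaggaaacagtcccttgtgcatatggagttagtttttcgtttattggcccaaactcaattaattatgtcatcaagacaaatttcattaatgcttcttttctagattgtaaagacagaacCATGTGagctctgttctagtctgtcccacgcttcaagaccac
SAUR15, chr4:18125757-18126056, plus strand: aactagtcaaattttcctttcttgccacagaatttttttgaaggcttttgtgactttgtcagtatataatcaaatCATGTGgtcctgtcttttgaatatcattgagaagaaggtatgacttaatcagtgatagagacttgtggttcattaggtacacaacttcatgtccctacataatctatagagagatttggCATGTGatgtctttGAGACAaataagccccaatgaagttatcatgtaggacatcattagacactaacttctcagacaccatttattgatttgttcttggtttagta
SAUR32, chr2:19180405-19180704, plus strand: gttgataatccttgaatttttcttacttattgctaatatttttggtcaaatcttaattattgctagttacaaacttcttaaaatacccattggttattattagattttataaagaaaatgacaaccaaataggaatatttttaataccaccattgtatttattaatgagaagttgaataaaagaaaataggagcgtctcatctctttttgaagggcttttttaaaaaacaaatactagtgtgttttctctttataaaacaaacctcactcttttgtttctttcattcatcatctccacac
SAUR36, chr2:18641263-18641562, plus strand: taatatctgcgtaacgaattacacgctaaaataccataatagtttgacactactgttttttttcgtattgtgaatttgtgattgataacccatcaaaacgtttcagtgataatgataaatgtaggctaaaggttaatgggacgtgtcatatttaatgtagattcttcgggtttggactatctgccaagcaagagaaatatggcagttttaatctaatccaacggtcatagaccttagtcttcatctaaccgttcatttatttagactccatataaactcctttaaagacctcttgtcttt
SAUR41, chr1:5645444-5645743, minus strand: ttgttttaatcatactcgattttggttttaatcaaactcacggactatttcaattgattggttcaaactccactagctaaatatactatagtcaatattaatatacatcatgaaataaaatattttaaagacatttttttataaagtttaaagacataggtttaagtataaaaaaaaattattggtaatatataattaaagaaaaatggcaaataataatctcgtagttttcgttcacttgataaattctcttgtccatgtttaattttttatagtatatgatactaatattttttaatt
SAUR71, chr1:21017011-21017310, plus strand: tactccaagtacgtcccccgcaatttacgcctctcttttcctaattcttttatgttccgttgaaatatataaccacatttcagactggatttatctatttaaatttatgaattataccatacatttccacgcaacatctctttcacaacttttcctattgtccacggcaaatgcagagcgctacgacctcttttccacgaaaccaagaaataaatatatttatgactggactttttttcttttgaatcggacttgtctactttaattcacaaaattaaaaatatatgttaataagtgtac
SAUR66, SAUR67 and SAUR15 each hold both a TGTCTC and a CATGTG, and SAUR64, SAUR65 and SAUR21 hold CATGTG alone. SAUR32, SAUR36, SAUR41 and SAUR71 hold none of these letters in this window. A match describes the sequence and shows no binding.

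Libraries held 33207020 to 55367880 counts (median 47474144.5), so 1 CPM stood for 31.9 to 67.4 counts. CALS3, the gene from which icals3m derives, stood at 5547, 5320, 4208 and 1598 CPM in icals3m with estradiol at 12, 24, 48 and 72 h, against 231, 171, 211 and 282 CPM with DMSO. It stayed between 79.2 and 121 CPM in every Col-0 and PD-plug library. The leaf label was checked by markers. Summed photosynthetic markers reached 16980 to 53870 CPM, summed shoot meristem markers did not pass 0.244 CPM, and the meristem genes STM and CLV3 were at 0 in all 72 libraries. In PD-plug with estradiol at 48 h, replicate 1 stood apart: its totals in the 2 deposited matrices were in a ratio of 1.37, against 1.90 to 2.07 in the others.

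Levels per transcript length differed widely. Over all libraries SAUR32, known for an effect on the apical hook of seedlings, had the highest mean at 19.6 CPM per kb. SAUR63 (11.6), SAUR62 (8.81), SAUR65 (8.73) and SAUR67 (8.38 CPM per kb) followed. SAUR20 had 9.51 CPM per kb over its annotated transcript of 495 bases and 7.81 over its gene of 603 bases, so its place in this order depends on the length used. SAUR22 (1.86), SAUR72 (1.05) and SAUR61 (0.957 CPM per kb) were lowest. These are means over all treatments and times.

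SAUR levels differed most between 12 h and the later times. In mock-treated Col-0, all 6 members of the SAUR19 subfamily, all 7 of the SAUR63 subfamily, SAUR15 and SAUR32 were higher at 24 h than at 12 h. All 3 members of the SAUR41 subfamily and SAUR36 were lower. The change passed the test for all 19 genes, 15 upward and 4 downward, at a time when 62.7% of all genes tested were called (31.3% upward and 31.5% downward). For SAUR19, SAUR22, SAUR23, SAUR24, SAUR61 and SAUR72 the choice of genes by mean level itself favours such a change. Over all genotypes and treatments, the median of SAUR72 reached 0.5 CPM only at 12 h (2.70 CPM). That of SAUR61 did so only at 24 and 48 h (1.58 and 0.692 CPM). Those of SAUR19, SAUR22, SAUR23 and SAUR24 were 0.0769, 0.0297, 0.313 and 0.244 CPM at 12 h. Medians of those genes passed 0.5 CPM only at the later times. The median log2 change was 2.56 over the 19 genes, also with SAUR22 set to the floor of its empty 12 h group, and -0.016 over all genes tested. In whole leaves, fewer cells of a type and less RNA per cell cannot be told apart. From 12 to 24 h summed photosynthetic markers went from 23230 to 25410 CPM up to 45940 to 50030 CPM, and summed epidermal markers from 192 to 243 CPM up to 289 to 328 CPM, with 6 of 6 and 5 of 5 genes higher. Summed vascular markers went from 690 to 776 CPM down to 448 to 475 CPM (5 of 8 genes higher, 2 lower) and guard cell markers from 46.1 to 53.1 CPM down to 35.3 to 40.8 CPM (1 of 7 higher, 2 lower). Their part in the SAUR change was not tested.

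SAUR21, which promotes cell expansion like the other members of its subfamily, stood at 0.297, 0.204 and 0.131 CPM at 12 h and at 13.1, 12.8 and 14.9 CPM at 24 h in mock-treated Col-0. The groups lay far apart (edgeR log2 fold change 6.04 ± 0.33 SE, adjusted p = 7.7e-24). SAUR20 rose from 0.303 to 9.67 CPM (log2 fold change 4.92). The 3 SAUR22 libraries at 12 h held no count, and the mean of 1.11 CPM at 24 h was at least 19.7-fold higher than a floor of 3 counts per library. Summed over the subfamily, the level was 1.17 ± 0.27 CPM at 12 h and 33.1 ± 3.6 CPM at 24 h (SD, n = 3).

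The SAUR63 subfamily, known for promoting hypocotyl, petal and stamen filament growth, moved in the same direction, with a smaller fold change of its sum. Its sum was 11 ± 1.57 CPM at 12 h and 57 ± 2.83 CPM at 24 h (SD, n = 3). SAUR65 went from 1.01, 0.987 and 0.784 CPM to 12.5, 11 and 11.9 CPM, without overlap (edgeR log2 fold change 3.67 ± 0.28 SE, adjusted p = 1.2e-17). SAUR61 had the highest fitted change of this subfamily (5.86, SE 1.05), but from libraries of 4, 0 and 0 counts at 12 h. SAUR15, cloned early as an auxin-inducible transcript, rose from 0.408 to 4.15 CPM.

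The SAUR41 subfamily ran the other way. SAUR41, which enlarges cells when overexpressed, stood at 8.78, 10.6 and 7.88 CPM at 12 h and at 1.92, 2.39 and 1.78 CPM at 24 h (edgeR log2 fold change -2.16 ± 0.43 SE, adjusted p = 1.56e-05). SAUR71 fell by 2.65 (12.6, 13.0 and 11 to 2.96, 1.20 and 1.66 CPM) and SAUR72 by 3.09 on the log2 scale. SAUR36, also called SAG201 for its rise in senescing leaves, fell from 13.7, 18.2 and 15.7 to 4.20, 3.5 and 3.09 CPM. In none of these 4 genes did a 12 h library overlap a 24 h library, and the share of all genes without such overlap was not counted.

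**Figure D1:**
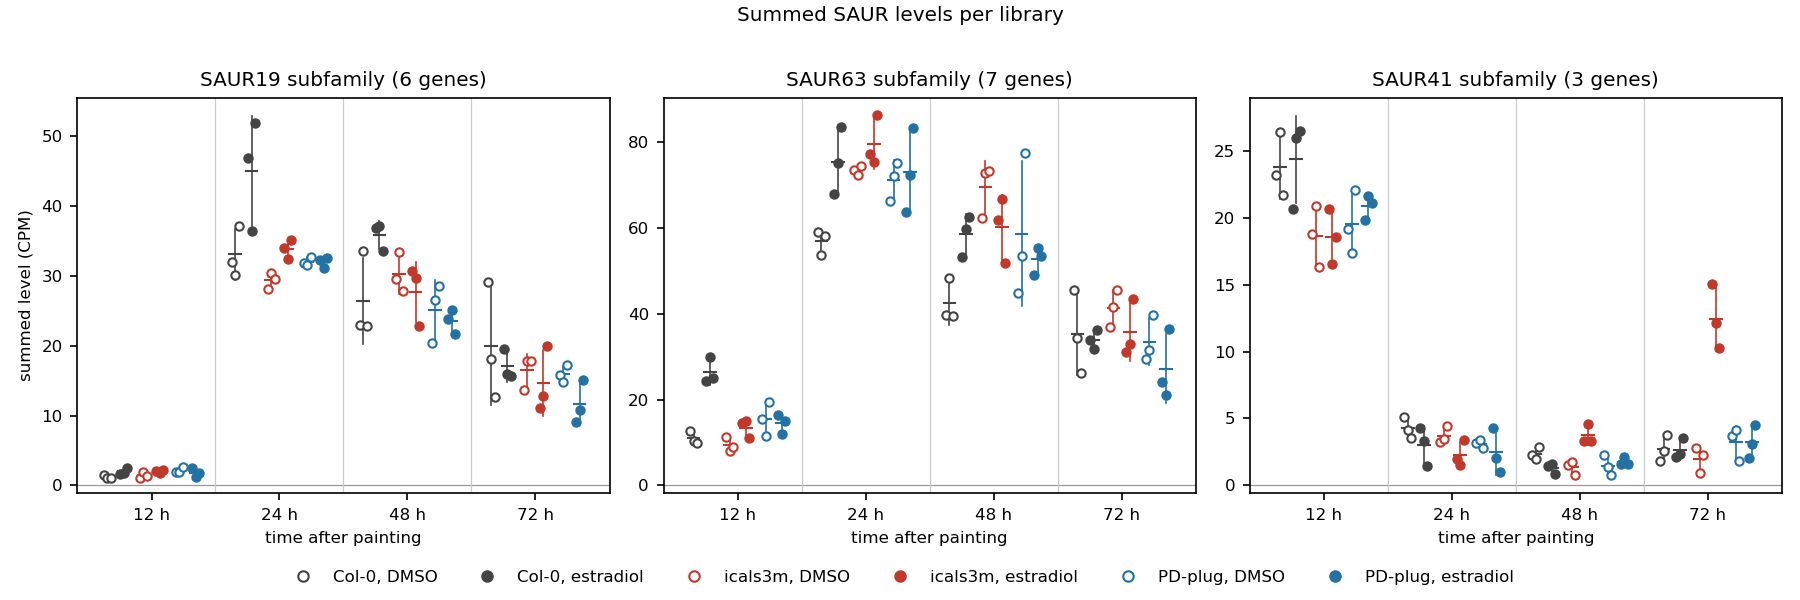
Summed level in CPM of each SAUR subfamily (vertical axes, from 0) against time after painting. Points are single libraries, open for DMSO and filled for estradiol, and bars give the mean and SD of 3 libraries. The SAUR19 and SAUR63 sums are low at 12 h and the SAUR41 sum is high, and at 72 h the icals3m libraries with estradiol stand apart in the SAUR41 panel at 10.2 to 15 CPM.

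The same division was seen in the lines. Over all genotypes and treatments, SAUR19 to SAUR24 were lower in every one of the 18 libraries at 12 h than in any of the 54 later ones. SAUR71 and SAUR72 were higher in every 12 h library than in any later one, and the other 11 genes overlapped. SAUR72 met the minimum level mainly through its 12 h libraries, and SAUR19, SAUR22, SAUR23 and SAUR24 through their later ones. The separation of these genes is therefore favoured by the choice of genes. How many of all genes separated the times in this way was not counted, so it is not known whether this is particular to SAUR genes. Of the clock genes, GIGANTEA (GI) was likewise lower in every 12 h library, with a median of 0.765 CPM against 76.4, 252 and 126 CPM at 24, 48 and 72 h. CCA1, a gene of the morning, had medians of 0.395, 180, 10.7 and 3.12 CPM at 12, 24, 48 and 72 h, and APRR1 (TOC1), a gene of the evening, 146, 12.5, 267 and 351 CPM. These clock genes therefore differed among the 24, 48 and 72 h libraries as well as from the 12 h ones. Time since painting and hour of day cannot be told apart here.

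From 24 to 48 h, 3 of the 19 genes changed in mock-treated Col-0, all downward, where 27.1% of all genes were called (13.5% downward). SAUR32 fell by 0.74 (± 0.15 SE, edgeR, adjusted p = 8.05e-05) and SAUR15 by 1.3 (± 0.37 SE, edgeR, adjusted p = 0.00452) in log2 units. The fall of SAUR71 (edgeR log2 fold change -1.53, adjusted p = 0.0385) was lost in the other matrix and in 4 of 6 fits without a single library: 24 h replicate 1 and each of the 48 h replicates, with adjusted p up to 0.231. From 48 to 72 h none of the 19 passed edgeR's test or DESeq2's, 5 had an unadjusted p under 0.05, and 12.8% of all genes were called. Over all libraries the medians of SAUR21 were 12.2, 8.91 and 4.55 CPM at 24, 48 and 72 h, those of SAUR63 13.0, 8.98 and 5.25 CPM, and those of SAUR19 1.59, 2.01 and 1.4 CPM. A difference between 24 and 72 h was not tested.

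Estradiol raised the SAUR63 subfamily in wild-type leaves at 12 h. All 7 members passed the test upward, SAUR61 from few counts, together with SAUR21 and SAUR22 of the SAUR19 subfamily, and none passed downward. This was 9 of 19 genes, where 38.6% of all genes were called in Col-0 at 12 h (21.9% upward). The median log2 change was 0.54 over the 19 genes, or 0.41 with SAUR22 set to the floor of its empty DMSO group, and 0.066 over all genes. Summed, the SAUR63 subfamily stood at 26.5 ± 3.06 CPM with estradiol and 11 ± 1.57 CPM with DMSO (SD, n = 3). Col-0 carries neither transgene, so the comparison measures the treatment itself together with any difference between the painted plants.

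SAUR65 showed 1.84, 4.24 and 3.76 CPM with estradiol and 1.01, 0.987 and 0.784 CPM with DMSO. The groups did not overlap (edgeR log2 fold change 1.84 ± 0.28 SE, adjusted p = 2.33e-07). SAUR64 showed 5.31, 5.33 and 5.08 CPM against 2.42, 1.5 and 1.96 CPM, likewise apart (edgeR log2 fold change 1.42 ± 0.24 SE, adjusted p = 2.01e-06). SAUR67 (log2 fold change 1.38), SAUR66 (1.36) and SAUR63 (1.08) also separated completely. The share of all genes without overlap in this comparison was not counted. In the SAUR19 subfamily, SAUR21 showed 0.693, 0.582 and 0.828 CPM against 0.297, 0.204 and 0.131 CPM (edgeR log2 fold change 1.77 ± 0.37 SE, adjusted p = 9.01e-05). SAUR62 did not overlap either (edgeR log2 fold change 0.88, adjusted p = 0.0102), but its call was lost without estradiol replicate 2 or without DMSO replicate 3, with adjusted p up to 0.0978.

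The remaining calls of that comparison rested on few counts. SAUR22 held 0, 0 and 12 counts with estradiol and none with DMSO, and the call was lost without estradiol replicate 3 and with counts divided by 4. SAUR61 held 28, 8 and 0 counts against 4, 0 and 0, and its call (edgeR log2 fold change 3.1, adjusted p = 0.0172) was lost in the other matrix and without estradiol replicate 1, DMSO replicate 2 or DMSO replicate 3, with adjusted p up to 0.426. SAUR36 was the only gene of the 19 that lay lower with estradiol without overlap, at 6.89, 9.08 and 10.2 CPM against 13.7, 18.2 and 15.7 CPM. It did not pass the test (edgeR log2 fold change -0.86, adjusted p = 0.0728). How common such separation was among all genes was not counted. In a fit of the 6 Col-0 libraries alone the count filter left out SAUR22 and SAUR61, so neither was called there. That fit called 7 of the 19 genes upward and 1 downward. Its calls over all genes turned from 4648 upward and 3547 downward to 3229 and 3998. Summed epidermal markers moved with these genes, at 330 to 343 CPM with estradiol and 192 to 243 CPM with DMSO, and 4 of 5 of them rose. Of the other marker lists, 2 of 6 photosynthetic and 2 of 7 guard cell markers rose, and of 8 vascular markers 3 rose and 1 fell. Of the clock genes named above, APRR1 stood at 179 to 199 CPM with estradiol and 123 to 147 CPM with DMSO. GI stood at 0.173 to 0.956 against 0.964 to 1.5 CPM, and CCA1 overlapped at 0.173 to 0.701 against 0.647 to 1.01 CPM. The part of these markers and clock genes in the result was not tested.

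**Figure D2:**
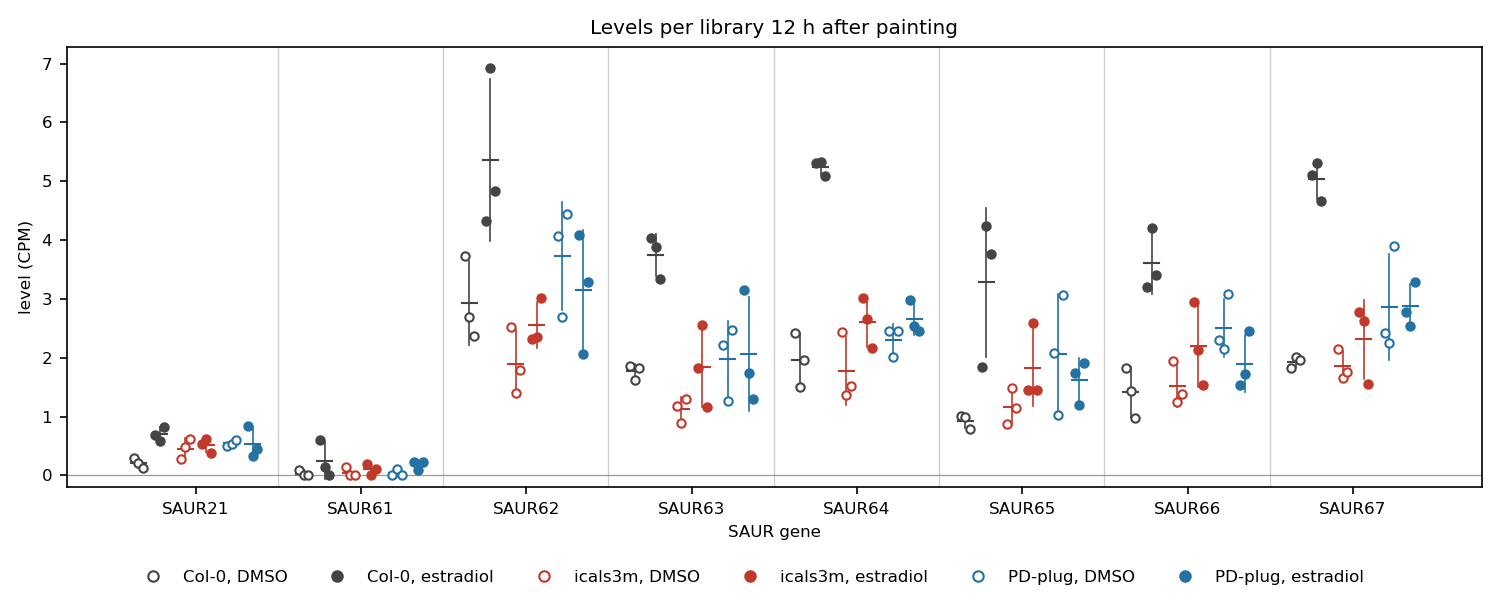
Level in CPM (vertical axis) of SAUR21 and of the 7 genes of the SAUR63 subfamily (horizontal axis) in the 18 libraries taken at 12 h. Points are libraries, open for DMSO and filled for estradiol, with the mean and SD of 3. In Col-0 the filled points lie above the open ones for every gene shown except SAUR61, while those of icals3m and PD-plug mostly intermingle.

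For 6 SAUR genes the estradiol response at 12 h was lower in PD-plug than in Col-0. None of the 19 genes passed edgeR's test within PD-plug at 12 h, where 27.1% of all genes were called; 2 had an unadjusted p under 0.05, and DESeq2 called 2. Within the 7 genes of the SAUR63 subfamily the log2 fold changes ranged from -0.39 to 2.36, the highest being that of SAUR61 with at most 14 counts a library. Tested directly against the Col-0 response, the PD-plug response was lower for 6 of 19 genes and higher for none, where 8.3% of all genes were called (6.19% lower). The median log2 difference was -0.74 over the 19 genes and -0.010 over all genes. The Col-0 libraries of the preceding comparison enter this one too, so the calls are not independent of each other. Summed photosynthetic markers in PD-plug stood at 16980 to 21060 CPM with estradiol and 24150 to 27390 CPM with DMSO, whereas in Col-0 they stood at 25760 to 28390 and 23230 to 25410 CPM. Against the Col-0 response 4 of 6 photosynthetic, 1 of 5 epidermal, 0 of 7 guard cell and 0 of 8 vascular markers were lower and none of them higher. Summed epidermal markers stood at 295 to 330 against 234 to 265 CPM in PD-plug, and the part of these shifts was not tested.

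SAUR65 showed the clearest difference. In PD-plug it stood at 1.75, 1.20 and 1.91 CPM with estradiol and 2.09, 1.03 and 3.06 CPM with DMSO, and the log2 difference from the Col-0 response was -2.18 ± 0.38 (SE; adjusted p = 7.59e-05, edgeR). SAUR66 stood at 1.53, 1.72 and 2.46 against 2.30, 2.15 and 3.08 CPM (difference -1.76, SE 0.34, edgeR adjusted p = 2.31e-04). SAUR67 differed by -1.37 (± 0.32 SE, edgeR, adjusted p = 0.00298) and SAUR64 by -1.22 (edgeR adjusted p = 0.0126), the latter lost without Col-0 DMSO replicate 2 (adjusted p = 0.0546). SAUR21 differed by -1.80 (edgeR adjusted p = 0.0129), and its call was lost without Col-0 DMSO replicate 3, with counts divided by 4 and in a fit of the 12 libraries alone, with adjusted p up to 0.228. SAUR22 was called at -6.63, a fitted value that depends on the prior count since its Col-0 DMSO group was empty. In PD-plug it held 0, 4 and 4 counts with estradiol and 4, 8 and 24 with DMSO, and it lost that call without Col-0 estradiol replicate 3 and with counts divided by 4. The count filter left SAUR22 out of a fit of the 12 libraries alone. Mock-treated PD-plug lay above mock-treated Col-0 without overlap for 5 of the 6 genes: SAUR21 (0.502 to 0.603 against 0.131 to 0.297 CPM), SAUR22, SAUR65 (1.03 to 3.06 against 0.784 to 1.01 CPM), SAUR66 (2.15 to 3.08 against 0.98 to 1.83 CPM) and SAUR67 (2.25 to 3.89 against 1.83 to 2.01 CPM). With estradiol SAUR64, SAUR66 and SAUR67 lay lower in PD-plug than in Col-0 without overlap, and SAUR21, SAUR22 and SAUR65 overlapped. These differences within one treatment at 12 h were not tested by themselves. The 6 genes were picked by a difference of responses that includes these same libraries. Low mock levels in Col-0 and high ones in PD-plug enlarge that difference, so such separation is partly built in by the choice. The share of all genes that separated likewise was not counted.

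In icals3m at 12 h none of the 19 genes passed either edgeR's test or DESeq2's, 6 had an unadjusted p under 0.05, and 17.2% of all genes were called. Log2 fold changes of the SAUR63 subfamily lay between 0.32 and 1.24. Against the Col-0 response none passed edgeR's test, DESeq2 called 3, 6 had an unadjusted p under 0.05, and 3.16% of all genes were called. The nearest were SAUR21 (difference -1.64, edgeR adjusted p = 0.0555), SAUR67 (-1.06, adjusted p = 0.0579) and SAUR65 (-1.21, adjusted p = 0.0675). No difference between the icals3m and PD-plug responses at 12 h passed for the 19 genes by edgeR or DESeq2, 2 had an unadjusted p under 0.05, and 1.19% of all genes were called.

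At 24 h a single call was made among these genes, SAUR36 in icals3m. No gene of the 19 passed in Col-0 (3 with an unadjusted p under 0.05, 0 by DESeq2, 0.984% of all genes called) or in PD-plug (1 with an unadjusted p under 0.05, 0 by DESeq2, 0.49% called). SAUR36 fell in icals3m, where 6.48% of all genes were called (edgeR log2 fold change -1.4, adjusted p = 0.0319). That call was lost in the other matrix and in 5 of 6 fits without a single library, all but the one without DMSO replicate 1, with adjusted p up to 0.206. No difference of a line's response from that of Col-0 passed for the 19 genes by edgeR or DESeq2. There, 0.259% of all genes were called for icals3m, with 1 SAUR gene at an unadjusted p under 0.05, and 0.033% for PD-plug, with 0. Nor did any difference between the lines pass by those tests (0 at an unadjusted p under 0.05, 0.358% of all genes called).

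**Figure D3:**
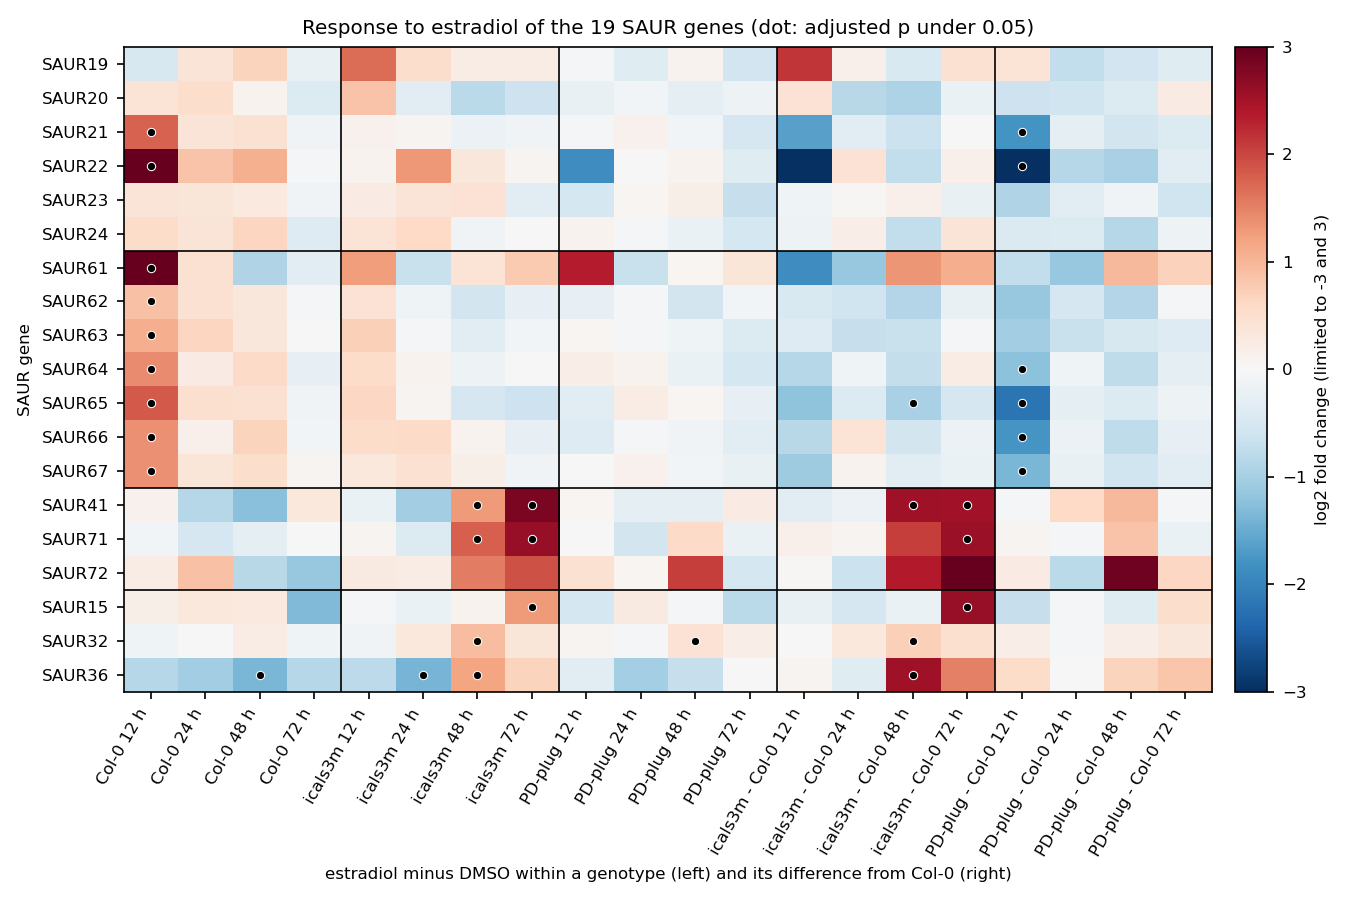
Log2 fold change (colour, limited to -3 and 3) of the 19 SAUR genes (rows, by subfamily) for estradiol against DMSO within each genotype and time, and for the difference of each line's response from that of Col-0 (columns). Dots mark edgeR adjusted p under 0.05. The SAUR63 subfamily is dotted in Col-0 at 12 h, and SAUR41, SAUR71, SAUR15, SAUR32 and SAUR36 carry the dots for estradiol against DMSO within icals3m at 48 and 72 h. SAUR22 at 12 h rests on groups at or near 0 counts.

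At 48 h the SAUR genes that rose in icals3m were SAUR32, SAUR36, SAUR41 and SAUR71, 4 of 19, where 18.3% of all genes were called (9.25% upward). None of the 13 genes of the SAUR19 and SAUR63 subfamilies passed. SAUR32 stood at 27.4, 22.5 and 20.5 CPM with estradiol and at 10.6, 14.1 and 12.0 CPM with DMSO. Its 3 estradiol libraries lay above all other 15 libraries at 48 h, the highest of which reached 20.2 CPM (edgeR log2 fold change 0.94 ± 0.15 SE, adjusted p = 4.35e-06). How many of all genes lay above the others in this way was not counted.

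SAUR41 stood at 1.83, 2.14 and 2.59 CPM with estradiol and 0.906, 1.27 and 0.495 CPM with DMSO, without overlap (edgeR log2 fold change 1.28 ± 0.45 SE, adjusted p = 0.0376). SAUR36 stood at 4.09, 7.26 and 9.34 against 5.13, 2.85 and 1.19 CPM, with overlap (edgeR log2 fold change 1.18, adjusted p = 0.0352), and SAUR71 at 1.4, 1.90 and 0.494 against 0.403, 0.455 and 0.198 CPM, without overlap (edgeR log2 fold change 1.80, adjusted p = 0.033). These 3 calls were fragile. Each was lost in the other matrix, SAUR36 and SAUR71 also in a fit of the 6 libraries alone. SAUR36 lost its call without replicate 2 or 3 of either arm (adjusted p up to 0.231), SAUR41 without estradiol replicate 2 or 3 or DMSO replicate 1 or 3 (up to 0.187), and SAUR71 in every such fit except that without estradiol replicate 3 (up to 0.173).

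In Col-0 at 48 h SAUR36 moved the opposite way, from 3.86, 2.22 and 3.90 CPM with DMSO to 1.15, 1.03 and 1.65 CPM with estradiol. It was the only call of the 19 there (edgeR log2 fold change -1.37, adjusted p = 0.048), where 6.67% of all genes were called. It was lost in 5 of 7 other settings and without any library but DMSO replicate 2 (adjusted p up to 0.192).

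The responses of icals3m and Col-0 at 48 h differed for 4 of 19 genes, where 13.4% of all genes were called (6.26% upward, 7.11% downward). SAUR36 and SAUR41 each differed by 2.55 on the log2 scale (edgeR, ± 0.60 SE, adjusted p = 0.00227, and SE 0.66, edgeR adjusted p = 0.00554), and both calls were kept in every setting and without any single library. SAUR32 differed by 0.71 (± 0.21 SE, edgeR, adjusted p = 0.0184), a call lost without Col-0 DMSO replicate 3, icals3m estradiol replicate 1 or icals3m DMSO replicate 1 (adjusted p up to 0.0814). SAUR65 differed the other way, by -0.96 (edgeR adjusted p = 0.0455), with 10.2, 8.95 and 7.66 CPM against 12.1, 13.0 and 12.5 CPM in icals3m and 11.3, 12.8 and 13.4 against 8.55, 11.2 and 7.26 CPM in Col-0. That call was lost in the other matrix, without a count filter and in 9 of 12 fits without a single library. The median difference was -0.46 over the 19 genes and -0.010 over all genes, with the SAUR19 and SAUR63 subfamilies at -0.68 and -0.67.

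PD-plug at 48 h had a single call among the 19, SAUR32, at 17.4, 12.1 and 19.4 CPM with estradiol and 13.3, 13.1 and 9.60 CPM with DMSO. The arms overlapped (edgeR log2 fold change 0.44, adjusted p = 0.0457, 13.3% of all genes called). The call was lost in the other matrix, with counts divided by 4, in a fit of the 6 libraries alone, and without estradiol replicate 1, the library that stood apart, estradiol replicate 3 or DMSO replicate 3 (adjusted p up to 0.317). No difference from the Col-0 response passed for the 19 genes by edgeR or DESeq2, 3 had an unadjusted p under 0.05, and 5.56% of all genes were called. Between icals3m and PD-plug none passed edgeR's test, DESeq2 called 1, 3 had an unadjusted p under 0.05, and 5.16% of all genes were called.

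At 72 h SAUR41, SAUR71 and SAUR15 rose in icals3m, 3 of 19 genes, where 21.5% of all genes were called (10.4% upward). Counted in either direction, the share of SAUR genes called was lower than that of all genes. The SAUR41 sum was 12.5 ± 2.41 CPM with estradiol and 1.99 ± 0.98 CPM with DMSO (SD, n = 3), against 23.8 ± 2.41 CPM in mock-treated Col-0 at 12 h and 2.71 ± 0.99 CPM at 72 h. The medians over the 19 genes (0.001) and over all genes (-0.0048) were both near 0 on the log2 scale.

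SAUR41 stood at 8.33, 7.02 and 6.0 CPM with estradiol and at 1.24, 0.412 and 1.35 CPM with DMSO. The 15 other libraries at 72 h did not pass 2.29 CPM (edgeR log2 fold change 2.83 ± 0.45 SE, adjusted p = 2.27e-06). SAUR71 stood at 5.22, 4.01 and 3.14 CPM against 0.959, 0.247 and 0.819 CPM, and the others did not pass 2.46 CPM (edgeR log2 fold change 2.60 ± 0.56 SE, adjusted p = 3.23e-04). Both calls were kept in every setting and without any single library. SAUR72, the third member, stood at 1.47, 1.07 and 1.09 CPM against 0.601, 0.247 and 0.0964 CPM, above all 15 other libraries, but did not pass the test (edgeR log2 fold change 1.91 ± 0.86 SE, adjusted p = 0.11). The share of all genes that lay above the 15 others at 72 h was not counted.

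SAUR15 stood at 1.21, 1.16 and 1.61 CPM with estradiol and 0.601, 0.370 and 0.674 CPM with DMSO, without overlap. Its call (edgeR log2 fold change 1.27 ± 0.39 SE, adjusted p = 0.0122) was lost without estradiol replicate 3 or DMSO replicate 2, with adjusted p up to 0.0911. SAUR36 stood at 8.70, 8.15 and 7.48 CPM with estradiol, above all 15 other libraries at 72 h, against 6.63, 2.98 and 5.73 CPM with DMSO. It did not pass (edgeR log2 fold change 0.66, adjusted p = 0.258), and the share of all genes that lay above the others likewise was not counted.

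SAUR68, the gene of the SAUR63 cluster under the minimum level, stood apart in icals3m and is named after its values were seen. At 48 h it held 84, 92 and 88 counts with estradiol (1.84, 2.43 and 1.81 CPM) and 8, 16 and 4 with DMSO (0.201, 0.317 and 0.0991 CPM). At 72 h it stood at 0.433, 1.03 and 0.988 against 0.226, 0.0823 and 0.193 CPM. The arms did not overlap at either time, yet edgeR's adjusted p was 0.138 at 48 h (log2 fold change 3.27 ± 1.54 SE) and 0.321 at 72 h (2.27, SE 1.5). In a fit of the 6 libraries alone both passed (edgeR adjusted p = 8.68e-04 and 0.0214), as they did with counts divided by 4 (7.43e-04 and 0.0368). Against the Col-0 response it did not pass at 48 h (edgeR adjusted p = 0.407) or 72 h (0.504).

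Against the Col-0 response at 72 h the same 3 genes, SAUR15, SAUR41 and SAUR71, were called upward in icals3m and none downward, where 11.3% of all genes were called (4.98% upward). SAUR15 differed by 2.60 (± 0.56 SE, edgeR, adjusted p = 7.42e-04) and SAUR41 by 2.52 (± 0.66 SE, edgeR, adjusted p = 0.00671), and both calls were kept throughout. For SAUR15 the Col-0 arms counted too, at 0.679, 0.330 and 0.649 CPM with estradiol and 2.17, 1.36 and 0.603 CPM with DMSO, which overlapped. SAUR71 differed by 2.60 (± 0.77 SE, edgeR, adjusted p = 0.0187), a call lost without Col-0 DMSO replicate 3, icals3m estradiol replicate 1 or icals3m DMSO replicate 2 (adjusted p up to 0.0927). The SAUR19 and SAUR63 subfamilies had no call, with median differences of 0.075 and -0.18 on the log2 scale.

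The same 3 genes also separated the lines at 72 h. The icals3m response exceeded the PD-plug response by 2.58 for SAUR41 (± 0.62 SE, edgeR, adjusted p = 0.00617), 2.80 for SAUR71 (± 0.77 SE, edgeR, adjusted p = 0.019) and 2.07 for SAUR15 (± 0.56 SE, edgeR, adjusted p = 0.016), where 5.35% of all genes were called (2.25% upward). None of these was kept without every single library. SAUR41 was lost without PD-plug DMSO replicate 2 (adjusted p = 0.0825), and SAUR71 without icals3m estradiol replicate 1, icals3m DMSO replicate 2, PD-plug estradiol replicate 1, or PD-plug DMSO replicate 1 or 2 (adjusted p up to 0.0774). SAUR15 was lost without icals3m DMSO replicate 2, PD-plug estradiol replicate 2 or PD-plug DMSO replicate 1, and in a fit of the 12 libraries alone (adjusted p up to 0.134). Its difference also took in the PD-plug arms, which overlapped. They stood at 0.555, 0.311 and 0.529 CPM with estradiol and at 1.36, 0.654 and 0.411 CPM with DMSO.

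Neither Col-0 nor PD-plug had a call among the 19 genes at 72 h. In Col-0, edgeR and DESeq2 called none, 1 gene had an unadjusted p under 0.05, and 0.0141% of all genes were called. In PD-plug both called none, 2 had an unadjusted p under 0.05, and 2.65% of all genes were called. No difference between the PD-plug and Col-0 responses passed for the 19 by either tool (0 at an unadjusted p under 0.05, 0.0942% of all genes called).

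Other leaf markers moved with these values in icals3m. Summed photosynthetic markers were at 28730 to 30630 CPM with estradiol and 40540 to 46140 CPM with DMSO at 48 h, and at 26150 to 28920 against 39300 to 42280 CPM at 72 h. At 72 h summed epidermal markers were at 234 to 264 against 334 to 348 CPM and vascular markers at 420 to 425 against 599 to 606 CPM. Within icals3m at 72 h, 4 of 6 photosynthetic, 4 of 5 epidermal, 3 of 8 vascular and 1 of 7 guard cell markers fell, and none of them rose. The part of these shifts in the SAUR results was not tested. At 72 h CALS3 in icals3m with estradiol was at 1598 CPM, the lowest of the 4 times.

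**Figure D4:**
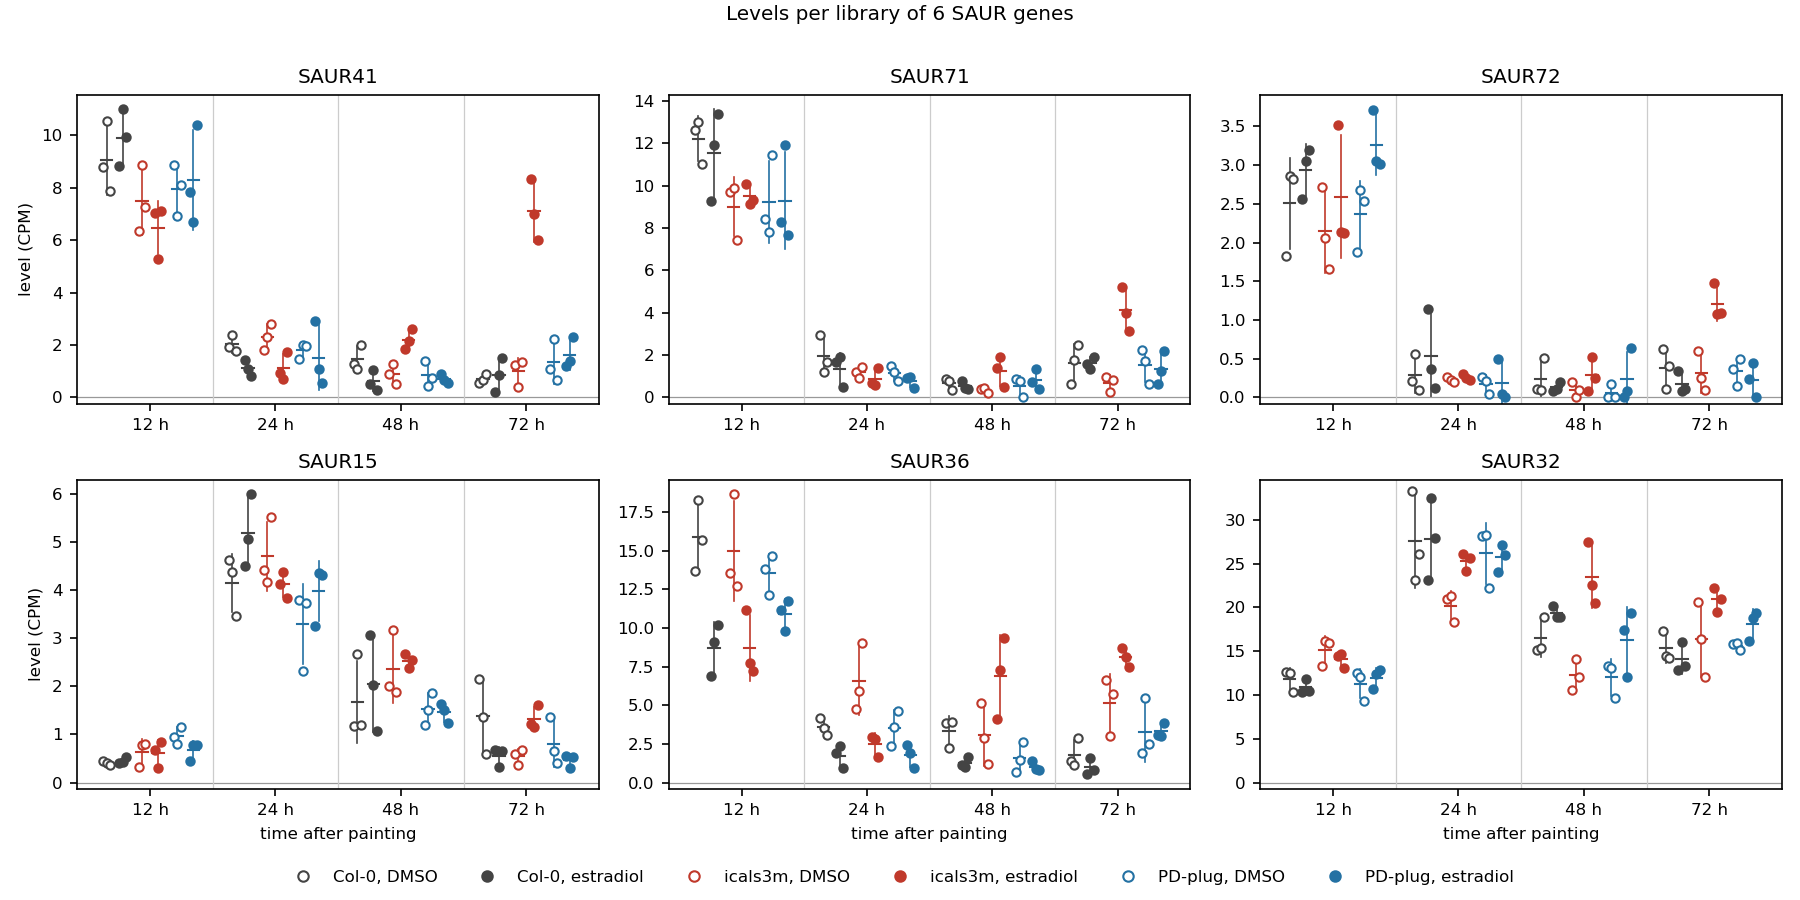
Level in CPM (vertical axes, from 0) of 6 SAUR genes in every library against time after painting, open points for DMSO and filled for estradiol, with the mean and SD of 3 libraries. The filled icals3m points of SAUR41, SAUR71, SAUR72 and SAUR36 lie above all other points at 72 h, and those of SAUR32 do so at 48 h. SAUR72 and SAUR36 did not pass the test within icals3m at 72 h.

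Without estradiol the genotypes already differed in part. Averaged over the 4 times with DMSO, 5 of 19 genes were called between icals3m and Col-0, where 19.1% of all genes were called. SAUR63 was higher in icals3m by 0.43 (± 0.13 SE, edgeR, adjusted p = 0.01), a call kept throughout. SAUR62 (0.41, edgeR adjusted p = 0.0321) and SAUR64 (0.34, adjusted p = 0.0272) were also higher, and SAUR71 was lower (-0.83, adjusted p = 0.0294). The fifth call was SAUR22 (edgeR adjusted p = 0.0259), whose mean takes in the 12 h libraries, with 4, 4 and 0 counts in icals3m and none in Col-0, so that its fitted size depends on the prior count. Leaving out a single library ended the call of SAUR22 in 4 of 24 fits, SAUR62 in 9, SAUR64 in 6 and SAUR71 in 7, with adjusted p up to 0.0998. In PD-plug 2 of 19 were called, where 6.18% of all genes were called. SAUR63 was higher by 0.48 (± 0.13 SE, edgeR, adjusted p = 0.0103, lost without PD-plug 48 h replicate 3 at 0.051). SAUR22 was called too (edgeR adjusted p = 0.0052), again with the empty 12 h group of Col-0 in the mean. At 24, 48 and 72 h its mock levels were 1.68, 2.26 and 1.16 CPM in PD-plug, 1.39, 3.27 and 1.47 CPM in icals3m and 1.11, 1.32 and 1.44 CPM in Col-0, and a mean over these times alone was not tested.

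The subfamilies varied together over the 72 libraries. The median correlation of log2 levels between pairs of genes was 0.897 within the SAUR19 subfamily, 0.91 within the SAUR63 subfamily and 0.887 within the SAUR41 subfamily. It was 0.851 between the SAUR19 and SAUR63 subfamilies, and -0.834 and -0.745 between the SAUR41 subfamily and each of these. The pairs share libraries, depth and above all the time course. After group means were taken away, the medians were 0.262, 0.399 and 0.0105 within the SAUR19, SAUR63 and SAUR41 subfamilies, so most of the likeness lay between groups. These values describe the libraries and carry no test.

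Other genes of the auxin response showed the following in the comparisons where SAUR genes were called. In Col-0 at 12 h, where 38.6% of all genes were called (21.9% upward), estradiol raised 9 of 26 Aux/IAA repressors tested, including IAA14 (log2 fold change 0.88) and IAA3 (0.82), and lowered none. It raised 4 of 6 auxin receptors and 9 of 15 auxin response factors (ARF18 0.82, ARF3 0.56). Of 11 auxin transporters 6 rose (AUX1 0.98, LAX1 0.90). Of 14 alpha expansins, wall-loosening proteins, 3 rose (EXPA8 0.80, EXPA6 0.56), a share near that of all genes. None of these lists held a gene that fell. Of 9 clade D PP2C phosphatases, the targets of SAUR proteins, 6 rose and 2 fell, and of 10 proton pumps 4 rose and 2 fell. Among 10 growth regulators 5 rose, with PIF4 at 1.32, and 1 fell. Of 6 GH3 enzymes, which conjugate auxin to amino acids and rise quickly with auxin, 2 fell: GH3.3 from 9.41 to 0.138 CPM and YDK1 from 12.1 to 0.205 CPM. Of 40 other SAUR loci tested, 6 rose, a smaller share than that of all genes, among them SAUR27 (2.00) and SAUR29 (1.90), and 2 fell, SAUR33 and SAUR55.

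In icals3m against the Col-0 response at 48 h, where 7.11% of all genes were lower and 6.26% higher, 10 of 26 Aux/IAA genes were lower (IAA3 -1.23, IAA14 -1.20) and 1 higher (IAA26, 0.62). Lower too were 2 of 6 receptors (GRH1 -1.22, TIR1 -0.44), 4 of 15 response factors (ARF5 -0.84, ARF11 -0.77), 3 of 11 transporters (PIN4 -1.14, PIN7 -1.02) and 5 of 14 expansins (EXPA11 -2.20, EXPA3 -2.00), with none of these higher. Of the phosphatases 2 were higher and 4 lower, and of the proton pumps 1 was higher (AHA1, 0.18). Among 40 other SAUR loci, SAUR59 was higher (1.33) and 5 were lower, including SAUR29 (-1.67) and SAUR50 (-1.25).

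At 72 h, where 6.29% of all genes were lower and 4.98% higher, 6 of 26 Aux/IAA genes were lower (IAA14 -1.94, IAA7 -1.03), as were 1 of 6 GH3 enzymes (GH3.6, -2.62), 2 of 6 receptors, 4 of 15 response factors, 5 of 11 transporters (PIN3 -1.09, PIN7 -1.0) and 6 of 14 expansins (EXPA11 -2.58, EXPA3 -1.53). None of these lists had a higher member. Of 10 growth regulators 2 were lower (PRE1 -2.36, HFR1 -1.32), of 9 phosphatases 1 was higher and 2 lower, and of 10 pumps 1 was higher (AHA11, 0.59). Of 40 other SAUR loci 2 were higher, SAUR79 (2.40) and SAUR59 (1.3), a share near that of all genes, and none lower. The values in parentheses are log2 differences of response past an edgeR adjusted p of 0.05.

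In PD-plug against the Col-0 response at 12 h, SAUR21, SAUR22 and 4 genes of the SAUR63 subfamily were lower, and 8.3% of all genes were called (6.19% lower). There, 1 of 26 Aux/IAA genes was higher and 1 lower, and 3 of 14 expansins were lower (EXPA11 -1.78, EXPA8 -1.43) and none higher. Of 40 other SAUR loci 3 were lower, among them SAUR27 (-2.53) and SAUR29 (-2.01), a share near that of all genes, and 1 was higher.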

How the data were processed

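RNA from 72 Arabidopsis leaf libraries was analysed from a pair of deposited matrices of expected counts per gene, which the authors had made before deposit. The submitters' processing notes name FastQC 0.11.8, Trim Galore 0.5.0, cutadapt 1.7, HISAT2 2.1.0, STAR 2.5, SAMtools 1.4.1 and StringTie 1.3.3 with the build TAIR10, without roles or order; the counting program is not given in the sources used here. All values were whole numbers already, with an excess of multiples of 4, so a count is not a tally of fragments. The matrix named for plasmodesmal closure was the main one, and the STAR matrix, which gives the symbols, the alternative, without its mCherry row.

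The model was edgeR 4.0.16 (limma 3.58.1, R 4.3.3): filterByExpr (minimum count 10, minimum total 15), TMM scaling, a quasi-likelihood fit of 24 group means with 48 residual degrees of freedom (biological coefficient of variation 0.167), and Benjamini-Hochberg adjustment over 21241 genes in each of 29 comparisons, with a threshold of 0.05. Standard errors came from the F statistic. Printed CPM are TMM-scaled, except the mean levels that chose the genes and the levels per kb, which use plain totals. The floor of a count of 0 was taken as 3 counts per library. It covers counting error only. The code was tested on simulated counts. Alternatives were the STAR matrix, DESeq2 1.42.0, RLE size factors, no filter, a replicate block, counts divided by 4, a fit of the compared libraries alone, each library left out in turn, and a minimum mean of 1 CPM.

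The SAUR genes, the gene lists and the tests were chosen with earlier results of these data known, so they are not independent support for them. For each comparison the text names all called SAUR genes or at least the 3 highest and 3 lowest, and up to 2 highest and 2 lowest called genes of each pathway list; others, such as SAUR68, SAUR72 and SAUR36 at 72 h and single SAUR loci outside the 19, were named after their values were seen. Sequences and coordinates are from RefSeq's TAIR10.1. Identity was computed on coding DNA with Biopython 1.88 in place of proteins. The 2 leaves of 4 plants behind each library are called biological replicates in the design text.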

Additional observations from a re-analysis of the deposited data

Results flagged for a closer look

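The following SAUR genes differed between genotypes by a test of the difference itself (edgeR, adjusted over 21241 genes), given as the difference of log2 responses to estradiol. Between icals3m and Col-0 at 48 h the values were 0.7065 for SAUR32, 2.548 for SAUR36, 2.546 for SAUR41 and -0.9611 for SAUR65. At 72 h they were 2.605 for SAUR15, 2.523 for SAUR41 and 2.599 for SAUR71. Between PD-plug and Col-0 at 12 h they were -1.8 for SAUR21, -6.632 for SAUR22 (from at most 24 counts a library), -1.222 for SAUR64, -2.18 for SAUR65, -1.759 for SAUR66 and -1.368 for SAUR67. Between icals3m and PD-plug at 72 h they were 2.073 for SAUR15, 2.58 for SAUR41 and 2.8 for SAUR71. Comparisons at the same time share libraries, so these lists are not independent of each other.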

How the results depend on the processing

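Of 1050 values of called SAUR genes among the 19 compared across settings, 933 kept their direction and side of the threshold, 117 kept their direction but no longer passed, and none reversed. The change from 12 to 24 h in mock-treated Col-0 kept all 19 calls under every setting and without any single library. Of the other calls, 9 of 19 within a genotype, 7 of 13 against Col-0, 0 of 3 between the lines and 2 of 7 under DMSO were kept throughout.

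Counts of SAUR genes called moved by over 1.5 times as follows, and the cause was not tested. In the STAR matrix, Col-0 at 48 h went from 1 to 0, icals3m from 1 to 0 at 24 h and from 4 to 1 at 48 h, and PD-plug at 48 h from 1 to 0. Counts divided by 4 gave 1 in place of 0 in icals3m at 12 h, 2 in place of 1 at 24 h and 5 in place of 3 at 72 h, 0 in place of 1 in PD-plug at 48 h, and 5 in place of 3 from 24 to 48 h. A fit of the compared libraries alone gave 1 in place of 0 in Col-0 at 24 h and 0 in place of 1 at 48 h, 1, 4 and 5 in place of 0, 1 and 3 in icals3m at 12, 24 and 72 h, 0 in place of 1 in PD-plug at 48 h, and 5 in place of 3 from 24 to 48 h. DESeq2 gave 2 in place of 0 in PD-plug at 12 h, 3 in place of 0 for icals3m against Col-0 at 12 h, and 1 in place of 0 between the lines at 48 h. Without a filter Col-0 at 48 h went from 1 to 0.

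Without a single library the counts ranged from 7 to 11 in Col-0 at 12 h and 0 to 3 at 48 h. In icals3m they ranged from 0 to 2, 0 to 1, 1 to 3 and 2 to 4 at 12, 24, 48 and 72 h, and in PD-plug from 0 to 1 at 12 h and 0 to 2 at 48 h. Against Col-0 they ranged for icals3m from 0 to 3, 2 to 5 and 2 to 4 at 12, 48 and 72 h, and for PD-plug from 5 to 8 at 12 h. Between the lines they ranged from 0 to 1 at 48 h and 1 to 3 at 72 h, under DMSO from 2 to 6 for icals3m and 1 to 4 for PD-plug, from 24 to 48 h from 2 to 4 and from 48 to 72 h from 0 to 3. SAUR22 in Col-0 at 12 h gave no value without estradiol replicate 3, since every library left was at 0.

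Replicate numbers did not pair the samples. Correlations of deviations from group means between same-numbered estradiol and DMSO libraries were -0.0785 to 0.0857. None of these 36 pairs of libraries was above 0.1, and 13 were best with their own number. With the replicate block Col-0 at 48 h went from 1 call to 0. Depth limits SAUR19, SAUR22 and SAUR61 at 12 h, where libraries held 0 to 28 counts in the groups shown. For SAUR68, which did not pass, the icals3m response against that of Col-0 at 48 h was 3.03 on the log2 scale, and without a single library it ranged from -2.73 to 3.62, the lowest without Col-0 DMSO replicate 1, where the other Col-0 DMSO libraries held no count.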

Other observations

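Outside the 19 genes, the auxin and growth lists also shifted between 12 and 24 h in mock-treated Col-0. There, 62.7% of all genes tested were called (31.3% upward and 31.5% downward). Of 40 other loci that RefSeq names SAUR, 12 were higher and 6 lower at 24 h, with a median log2 change of -0.22 where that of all genes was -0.016, against 15 and 4 of the 19 SAUR genes described above. Of 14 alpha expansins 10 were higher and 1 lower, and of 10 growth regulators 8 were higher and 1 lower. The clade D PP2C phosphatases, which SAUR19-type proteins inhibit, and the proton pumps that these phosphatases act on lay mostly on the other side: 1 of 9 phosphatases was higher and 6 lower, and 1 of 10 pumps was higher and 6 lower. Of 26 Aux/IAA repressors 9 were higher and 6 lower. No cause was tested, and the hour of sampling is not given in the sources used here.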
